A study of Mus musculus with 8 samples.

Results

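The troponin and tropomyosin genes of striated muscle were examined in whole knee joints of mice, 10 genes of the 20681 in the deposited table. They were taken by name: the fast genes Tnnt3, Tnni2 and Tnnc2, the slow genes Tnnt1, Tnni1 and Tnnc1 (Tnnc1 also serves the heart), the cardiac gene Tnnt2, and the tropomyosin genes Tpm1, Tpm2 and Tpm3. The series holds 4 libraries labelled control and 4 labelled knockout of Loxl2, a lysyl oxidase gene that crosslinks collagen. The series description gives an Acan-Cre allele, in which a cartilage gene drives the recombinase, together with loxP-flanked Loxl2 (Loxl2 fl/fl) for all 8 joints, and it calls the controls vehicle-treated. The library names read LOXL2wt for the controls and LOXL2ko for the others, and all carry DMM, which usually stands for surgical destabilisation of the medial meniscus. The age of the mice, the agent given to the knockout group and the time after surgery are not given in the sources used here. Acan-driven recombination is aimed at cartilage cells and not at muscle fibres, where the genes described here are mainly expressed.

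Striated muscle contracts when calcium binds troponin C, which releases the block that troponin I holds on actin. Troponin T ties that complex to tropomyosin, a coiled-coil rod that lies along the actin filament and covers or uncovers the myosin-binding sites. Fast and slow muscle fibres use different genes for each troponin subunit, so that the ratio of the slow to the fast gene is a common readout of fibre composition. The tropomyosin genes are less exclusive, because each also makes other forms in smooth muscle or non-muscle cells, through other exons or promoters.

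The libraries held 13991000 to 17411617 reads assigned to genes. Loxl2 had 282, 349, 1135 and 311 normalised reads across control replicates 1 to 4, and it had 893, 1468, 960 and 1518 across knockout replicates 1 to 4. Its log2 difference was 1.44 (SE 0.40), called higher by limma (adjusted p = 0.0294) and by neither edgeR (adjusted p = 0.119) nor DESeq2 (adjusted p = 0.0659). Without control replicate 3, the highest control, it was 1.91 (limma adjusted p = 0.00188). Leaving out any of the other 3 controls ended the call, as did leaving out replicate 2 or 4 of the knockout-labelled group (limma adjusted p = 0.0666 to 0.0849), with the replicate block (0.0513) and without the intensity trend (0.0594). In these whole-joint counts the targeted transcript was thus higher under the knockout label, and a group is named here by its label alone. A count over the whole gene includes exons outside the deleted part, which the labels do not name. It also covers all cells of the joint, while the recombination is aimed at cartilage cells. It is therefore a weak check of the deletion. Of the cartilage markers of this whole joint, 8 of 8 were in the table, with summed counts of 3714 to 11299 in the controls and 9231 to 13061 in the knockout-labelled group. By mean, Comp held the largest part of these sums (4358 of 7275 and 7942 of 10953). Of the 8 markers, 1 was called higher, Hapln1 (limma adjusted p = 0.0165), and 7 were not called, beside 11.6% of all genes tested called higher. The labels do not say how the replicates relate to animals beyond calling them mouse knee joint samples, so that the p-values measure the spread between these samples.

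All 10 genes passed the filter on low values, a count of at least 10 in at least 4 libraries. Under limma, fitted to the log2 of count plus 1, 0 of the 10 were called at an adjusted p under 0.05, while 3461 of 14949 genes tested (23.2%) were called, and 11.6% were called lower. At an unadjusted p under 0.05, 4 of the 10 were lower in the libraries labelled knockout, beside 19.2% of all genes tested (38.4% in either direction). The groups did not overlap for Tnnt3, Tnni2 and Tpm1, where each of the 4 knockout-labelled libraries lay below every control, against 13.4% of genes tested with separate groups and lower values. These same 3 genes were called lower by edgeR's quasi-likelihood test, which called 11.1% of all genes tested lower (22.1% in either direction). They were also called lower by DESeq2, which called 13.3% lower (27.6% in either direction). Both were run on the recovered reads. Limma without the intensity trend, chosen after seeing the data, called the same 3 lower, beside 8.09% of all genes (17.5% in either direction). The median log2 difference of the 10 genes was -0.54, beside 0.0012 for all genes tested. It turned to 0.11 when libraries were scaled on muscle genes, which moved the median of all genes to 0.63.

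**Figure D1:**
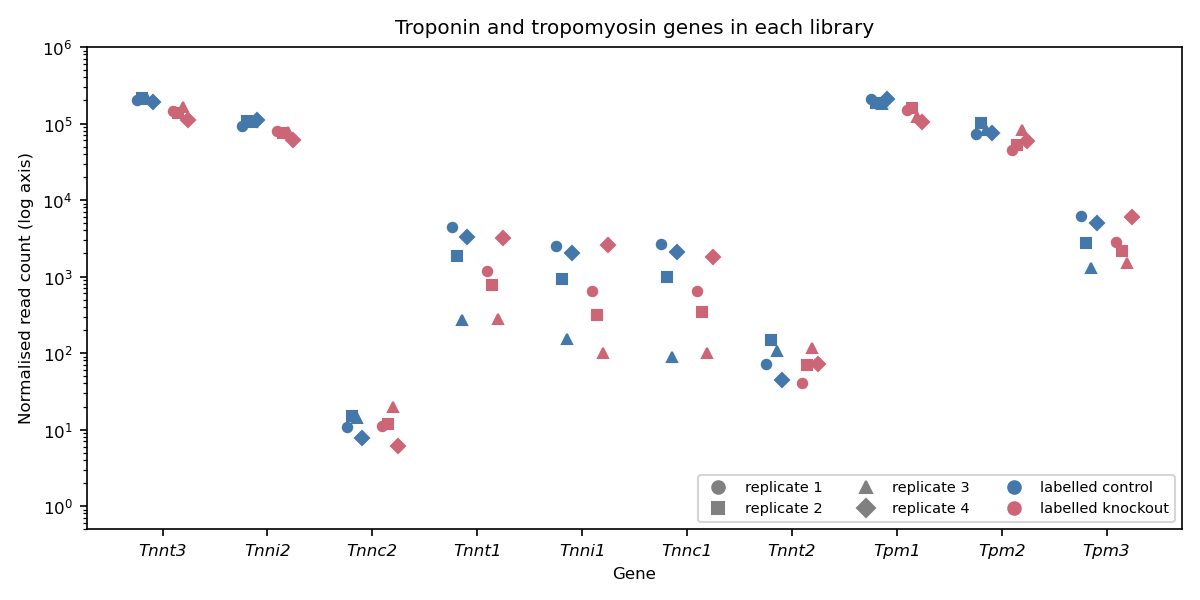
Normalised read count of each troponin and tropomyosin gene in each library, on a log axis, with 1 point per library, colours for the labelled groups and symbols for replicate numbers. Tnnt3, Tnni2 and Tpm1 have separate groups, Tnnt1, Tnni1 and Tnnc1 spread over 16.4- to 29.6-fold, and Tnnc2 stays at or under 19.6.

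The fast troponins T and I were among the most abundant transcripts of the joint, ranked 10 and 17 of all genes by mean count. Tnnt3, fast troponin T, had 202739, 218029, 207725 and 190298 normalised reads across control replicates 1 to 4. Across knockout replicates 1 to 4 it had 146644, 137058, 165803 and 111066. Every control library lay above every library labelled knockout, and knockout replicate 4 was the lowest. The log2 difference (labelled knockout minus labelled control) was -0.56 (SE 0.22, 95% interval -1.04 to -0.076), not called by limma (adjusted p = 0.0871). edgeR gave an adjusted p of 0.0190 and DESeq2 gave 0.000452 for the same gene.

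Tnni2, fast troponin I and the inhibitory subunit, had 92382, 109202, 104521 and 110771 normalised reads across control replicates 1 to 4. It had 79279, 75164, 77050 and 61743 across knockout replicates 1 to 4. Here too the groups were separate, and knockout replicate 4 was again the lowest. The log2 difference was -0.51 (SE 0.17, 95% interval -0.88 to -0.14), just short of a call by limma (adjusted p = 0.0522). The gene was called by edgeR (adjusted p = 0.0149) and by DESeq2 (adjusted p = 0.000130), and by limma after TMM scaling (adjusted p = 0.0475), where 11.2% of all genes tested were called lower (23% in either direction). The genes lie on the same strand of chromosome 7 with 54425 bases between them, Tnni2 from 142441808 to 142444410 and Tnnt3 from 142498836 to 142516009 on mm10. Per kilobase of merged exons, the level in the controls was 129310 ± 7277 for Tnnt3 and 69618 ± 5562 for Tnni2 (SD, n = 4).

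Fast troponin C had few reads in every library. Tnnc2 had 10.8, 15.1, 14.0 and 7.67 normalised reads across control replicates 1 to 4 and 10.97, 11.97, 19.6 and 6.16 across knockout replicates 1 to 4. It ranked 14616 by mean count, although its partners in the same complex ranked 10 and 17. Tnnc2 lies on the minus strand of chromosome 2 from 164777161 to 164779967. The last exon of Ube2c, a cell-cycle ubiquitin-conjugating enzyme gene on the plus strand, runs from 164777190 to 164778822 and covers 592 of the 800 exonic bases of Tnnc2 (74.0%). It contains 4 of the 7 annotated exons of Tnnc2 whole and all but 29 bases of the last, and it leaves free the 79 and 100 bases of the alternative first exons. Reads that fall on 2 genes are left out by featureCounts in its default mode, and the setting used by the authors is not given in the sources used here. Ube2c itself had a mean of 221 ± 67.9 in the controls and 136 ± 50.3 in the knockout-labelled group (SD, n = 4). The log2 difference of Tnnc2 was -0.029 (95% interval -0.95 to 0.89, limma adjusted p = 0.966). Whether reads of Tnnc2 were dropped at the shared exon was not tested, and the values are not read as the level of fast troponin C.

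**Figure D2:**
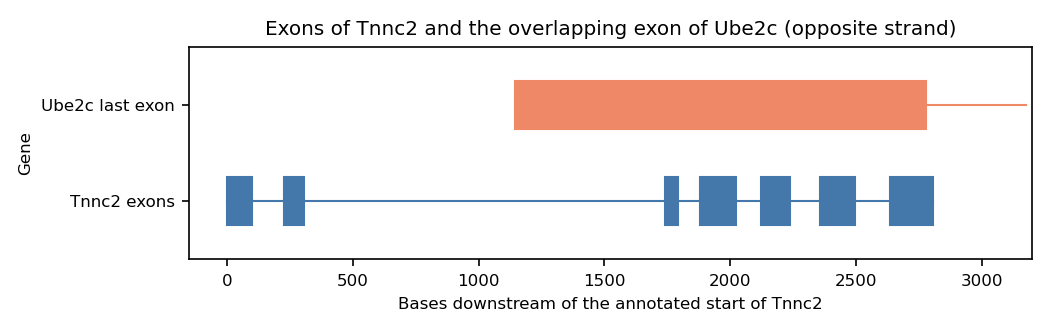
Annotated exons of Tnnc2 and the last exon of Ube2c on the opposite strand, drawn to scale as bases downstream of the start of Tnnc2; boxes are exons and lines are introns or the rest of the gene. The Ube2c exon covers 592 of the 800 exonic bases of Tnnc2.

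The slow troponins had another pattern. Their levels varied over more than an order of magnitude between libraries of the same group, and the groups overlapped for each of them. Tnnt1, slow troponin T, had 4440, 1837, 270 and 3318 normalised reads across control replicates 1 to 4 and 1189, 765, 276 and 3199 across knockout replicates 1 to 4. Tnni1, slow troponin I, had 2483, 921, 151 and 2028 in the controls and 637, 314, 100.05 and 2595 in the libraries labelled knockout, in the same order. Tnnc1, the troponin C of slow fibres, had 2655, 987, 89.7 and 2115 in the controls and 652, 346, 101 and 1777 in the libraries labelled knockout.

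For all 3 genes the highest libraries were control replicates 1 and 4 and knockout replicate 4, and the lowest were control replicate 3 and knockout replicate 3. The ratio of the highest to the lowest library was 16.4 for Tnnt1, 25.9 for Tnni1 and 29.6 for Tnnc1. The within-group standard deviation on the log2 scale was 1.65, 1.90 and 1.99, which placed them at rank 80, 40 and 36 of the 14949 genes tested, whose median was 0.24. For Tnnt3 it was 0.18 and for Tnni2 0.14. Between the groups the log2 difference was -0.80 for Tnnt1 (95% interval -2.82 to 1.23, limma adjusted p = 0.553). For Tnni1 it was -0.94 (-3.27 to 1.40, limma adjusted p = 0.545), and for Tnnc1 -0.90 (-3.35 to 1.55, limma adjusted p = 0.579). These intervals span both large falls and rises, so that the slow troponins were not shown to differ between the groups or to be alike. The fit behind them has no term for the replicate number. Control replicate 3 bore on the size of each difference, which without it was -1.66 for Tnnt1, -1.80 for Tnni1 and -1.98 for Tnnc1 (limma adjusted p = 0.111, 0.179 and 0.107). Knockout replicate 3 did so in the other direction, and without it the differences were -0.20, -0.19 and -0.19, while without knockout replicate 4 they were -1.38, -1.75 and -1.56. Without control replicate 1 they came to -0.32, -0.46 and -0.35, and without control replicate 4 to -0.46, -0.56 and -0.46.

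**Figure D3:**
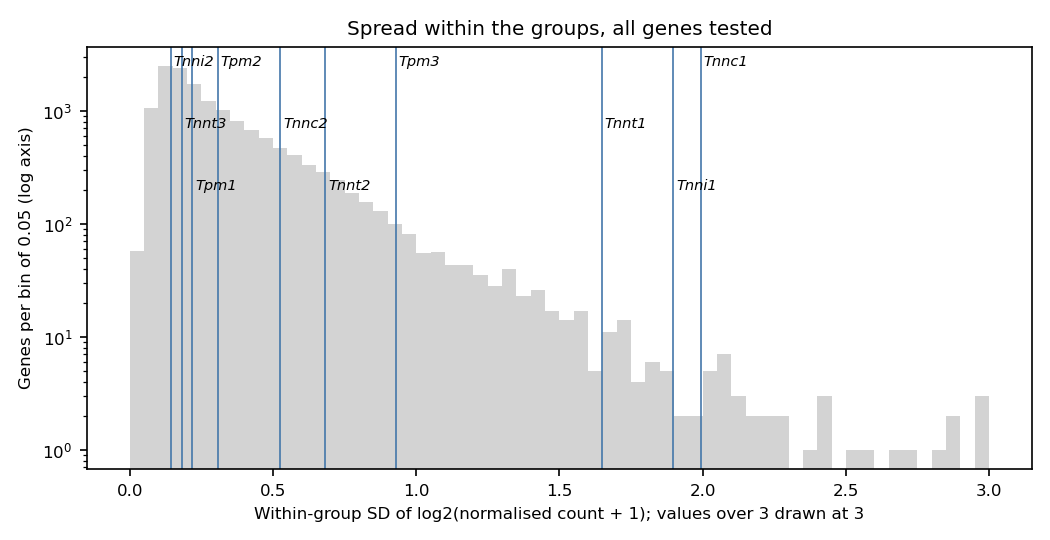
Histogram of the within-group standard deviation of log2(normalised count + 1) over the 14949 genes tested, with a line for each troponin and tropomyosin gene; the vertical axis is logarithmic. Tnni2 and Tnnt3 lie left of the median of 0.24, and Tnnt1, Tnni1 and Tnnc1 lie in the far right tail.

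The same highest and lowest libraries also appeared in other genes of slow fibres, named here after their values were seen. Myh7, the slow myosin heavy chain, had 8990, 2484, 197 and 10895 normalised reads across control replicates 1 to 4 and 2861, 1108, 46.8 and 6700 across knockout replicates 1 to 4. Myl2 and Myl3, slow myosin light chains, and Atp2a2, the slow calcium pump, had the same 3 highest and the same 2 lowest libraries as the slow troponins. Casq2 and Myoz2 shared only the 3 highest, Sln only the 2 lowest, and Myh7b, Mybpc1, Myl6b and Pln neither. Thus 4 of the 11 genes listed for slow fibres shared both sets, while the order within a set was not compared. Of these 11 genes, all tested, 0 were called by limma in either direction, and the lowest adjusted p was 0.178. Their median within-group standard deviation was 0.77 on the log2 scale.

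By the root mean square difference of centred log2 values over the 8 libraries, the 2 genes most like each slow troponin were the other 2 slow troponins, at 0.31 to 0.33. The third was Myl2 each time, at 0.39 for Tnnt1, 0.63 for Tnni1 and 0.67 for Tnnc1. The median over all genes tested was 1.51, 1.74 and 1.81. The genes are not neighbours in the genome. Tnnt1 lies on chromosome 7 (4504570 to 4516382, minus strand), Tnni1 on chromosome 1 (135779434 to 135810989, plus strand) and Tnnc1 on chromosome 14 (31208312 to 31211729, plus strand), the last within Nisch on the opposite strand, with 0 exonic bases shared.

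**Figure D4:**
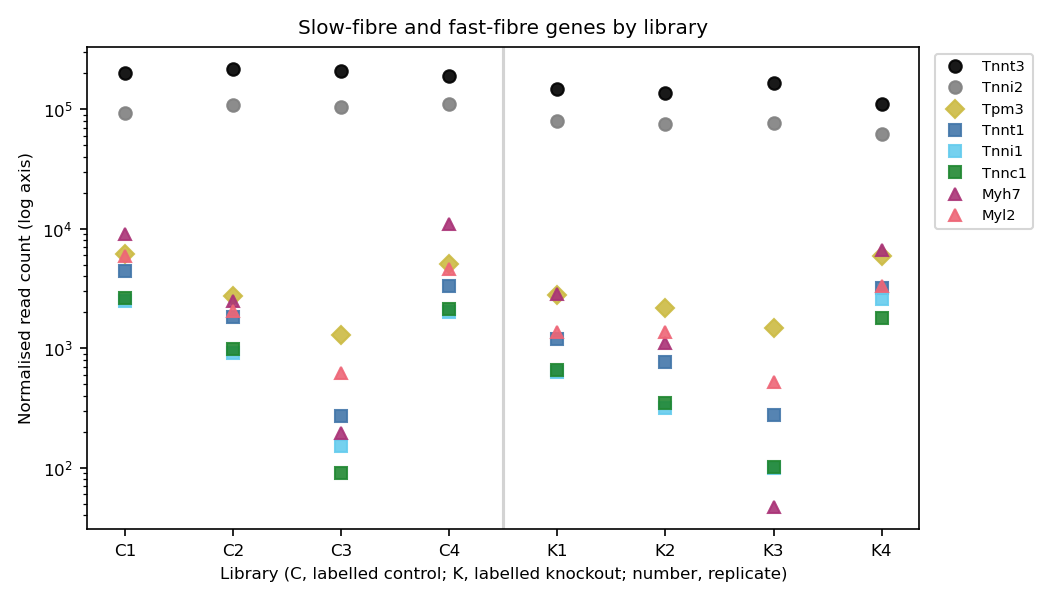
Normalised read count, on a log axis, of slow-fibre genes (Tnnt1, Tnni1, Tnnc1, Myh7, Myl2), Tpm3 and fast-fibre genes (Tnnt3, Tnni2) in each library, with 1 point per gene and library. The slow genes rise and fall together across libraries in both groups, down to 46.8 for Myh7 in knockout replicate 3, while Tnnt3 stays between 111066 and 218029.

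Because the 3 slow troponin genes moved together across libraries from 3 chromosomes, the 120 bases before their RefSeq starts (build GRCm38.p6, strand of the gene) are shown. Capitals mark a TATA box (TATAAA) in Tnnt1, an E-box of the form CAGCTG in Tnni1, and an M-CAT motif (CATTCC, here on the other strand) in Tnnc1. For Tnni1, which has more than 1 RefSeq start in the table, the first is printed.
Tnnt1, chr7:4515976-4516095, minus strand: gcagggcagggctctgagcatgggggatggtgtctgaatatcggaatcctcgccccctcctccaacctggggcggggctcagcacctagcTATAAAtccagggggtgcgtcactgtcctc
Tnni1, chr1:135799301-135799420, plus strand: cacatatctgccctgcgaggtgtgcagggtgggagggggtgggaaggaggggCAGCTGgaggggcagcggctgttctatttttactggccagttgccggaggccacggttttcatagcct
Tnnc1, chr14:31208192-31208311, plus strand: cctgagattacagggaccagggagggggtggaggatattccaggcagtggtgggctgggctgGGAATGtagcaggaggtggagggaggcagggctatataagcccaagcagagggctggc

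The motifs were searched on both strands in the 250 bases before each start, and promoters of 8 of the 10 genes were matched by symbol. The TATA box of Tnnt1 lay 30 to 25 bases before the start, and TATAAA is found in 12.4% of all 32851 promoter windows of this length. The CAGCTG of Tnni1 lay 68 to 63 bases before the start, and 13.0% of windows hold this motif. The M-CAT motif of Tnnc1 lay 58 to 53 bases before the start, and 12.6% of windows hold it. None of these 3 motifs was found in all 3 slow promoters. The TATA box was searched only as TATAAA, so that a near variant such as the tatataa printed for Tnnc1 was not counted. The general E-box CANNTG, of which CAGCTG is a case, was found in each of them and in 66.2% of all windows. No MEF2 site or CArG box was found in these windows for any of the 8 genes, motifs that 2.92% and 1.47% of all windows hold. A match or its absence describes the letters only.

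The slow genes made up a small part of each troponin pair. Per kilobase of merged exons, Tnnt1 was 0.870% ± 0.651 of the sum of Tnnt1 and Tnnt3 in the controls and 0.781% ± 0.852 in the knockout-labelled group (SD, n = 4). The lowest single library was control replicate 3 at 0.0933%, and the highest was knockout replicate 4 at 2.03%. Tnni1 was 0.568% ± 0.458 of the sum of Tnni1 and Tnni2 in the controls and 0.570% ± 0.774 in the knockout-labelled group, with a lowest value of 0.0540% in knockout replicate 3 and a highest of 1.72% in knockout replicate 4. The fast gene exceeded the slow gene in all 8 libraries for both subunits. Merged exons include alternative ones, so these shares depend on which transcripts are made.

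A ratio of 2 genes within a library does not depend on how that library was scaled. The log2 ratio of Tnnt1 to Tnnt3 was -6.96 ± 1.85 in the controls and -7.19 ± 1.69 in the knockout-labelled group, a difference of -0.24 (n = 4 per group, exact two-sided permutation p = 0.886). The log2 ratio of Tnni1 to Tnni2 was -6.82 ± 1.87 and -7.25 ± 2.09, a difference of -0.43 (n = 4 per group, exact permutation p = 0.771). The ratio of Tnnc1 to Tnnc2 was computed as planned (difference -0.87, exact permutation p = 0.543), but it is not read as a fibre-type ratio because of the exon that Tnnc2 shares with Ube2c. Adjusted over the 3 ratios, each p was 0.886, and the smallest p the design allows was 0.0286. Within a group the ratio of Tnnt1 to Tnnt3 spanned 4.07 log2 units in the controls and 4.11 in the libraries labelled knockout, far more than the difference between the groups.

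Tnnt2, the troponin T of heart and of developing skeletal muscle, was low in all 8 libraries. It had 71.4, 148, 107 and 43.8 normalised reads across control replicates 1 to 4 and 40.9, 69.3, 116 and 71.3 across knockout replicates 1 to 4, with overlapping groups. The log2 difference was -0.27 (95% interval -1.16 to 0.63, limma adjusted p = 0.661). Control replicate 2 was the highest library and decided the sign, since the difference without it was 0.0061. Tnnt2 lies 25364 bases from Tnni1 on the same strand of chromosome 1 (135836354 to 135852260), but its order of libraries was another one. Control replicate 3 and knockout replicate 3, the lowest for Tnni1, were among the 3 highest for Tnnt2. The genes most like it were Etv5, Shc4 and Prx, at a root mean square difference of 0.23, 0.25 and 0.28 against a median of 0.67.

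Genes that mark developing or regenerating muscle fibres were examined beside Tnnt2. Of the 11 listed, 8 were tested, 2 were called lower and 1 higher by limma, beside 11.6% of all genes tested in each direction. Myh3, the embryonic myosin heavy chain, fell from a mean of 403 to 192 (log2 difference -1.04, limma adjusted p = 0.0204). Myh8, the perinatal myosin heavy chain, fell from 415 to 155 (-1.26, limma adjusted p = 0.0342). Ncam1, a neural cell adhesion molecule also made by nerve and by denervated fibres, rose from 201 to 364 (0.90, limma adjusted p = 0.0176). Scaled on the muscle reference genes, the differences of Myh3 and Myh8 were -0.40 and -0.62 and no longer called (limma adjusted p = 0.168 and 0.148). Of the 7 cardiac markers 4 were in the table and tested, and 0 were called. Among them Tnni3, cardiac troponin I, had means of 14.3 ± 7.69 and 28.7 ± 9.52 (SD, n = 4; log2 difference 1.10, limma adjusted p = 0.127). Scaled on the muscle reference genes, it differed by 1.69 and was called (limma adjusted p = 0.0118), where 10003 of 14949 genes tested were called higher. Tnni3 lies 1922 bases from Tnnt1 and shares 4.17% of its exonic bases with Dnaaf3, on the same strand.

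Among the tropomyosins, Tpm1 and Tpm2 were abundant, ranked 12 and 24 of all genes by mean count. Their within-group standard deviations were 0.22 and 0.31 on the log2 scale, below and above the median of 0.24 over all genes tested. Tpm1, which encodes the alpha tropomyosin of fast fibres, had 210622, 187577, 177303 and 212114 normalised reads across control replicates 1 to 4. Across knockout replicates 1 to 4 it had 149121, 159101, 121836 and 103703. The groups were separate, with knockout replicate 4 the lowest library once more. The log2 difference was -0.58 (SE 0.22, 95% interval -1.08 to -0.078), not called by limma (adjusted p = 0.0875) but called by edgeR (adjusted p = 0.0252) and DESeq2 (adjusted p = 0.00191).

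Tpm2, the beta tropomyosin of fast and slow fibres, had 71859, 102205, 82918 and 75824 normalised reads across control replicates 1 to 4 and 44968, 52243, 82287 and 59299 across knockout replicates 1 to 4. The groups overlapped through knockout replicate 3 alone, which lay above control replicates 1 and 4. The log2 difference was -0.50 (SE 0.22, 95% interval -0.99 to -0.020, limma adjusted p = 0.117). Without knockout replicate 3 it was -0.67 and called (limma adjusted p = 0.0272), as were Tnnt3 (adjusted p = 0.0433) and Tnni2 (adjusted p = 0.0448), where 13.4% of all genes tested were called lower (25.7% in either direction).

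Tpm3, the tropomyosin of slow fibres and of many non-muscle cells, was like the slow troponins in its highest and lowest libraries. It had 6151, 2756, 1301 and 5030 normalised reads across control replicates 1 to 4 and 2810, 2178, 1492 and 5966 across knockout replicates 1 to 4. Its 3 highest and 2 lowest libraries were those of Tnnt1, Tnni1 and Tnnc1, but its range was narrower, 4.73-fold from the lowest to the highest library. The log2 difference was -0.26 (95% interval -1.40 to 0.89, limma adjusted p = 0.748), and it changed sign without control replicate 1 (0.051) or knockout replicate 3 (0.032). The gene most like it was Tpm3-rs7, an intronless related sequence of 2147 bases on chromosome 14, at 0.24, followed by Nlrc3 at 0.37 and BC030867 at 0.38 (median 0.87). The count of Tpm3-rs7 was 4.36% to 7.97% of that of Tpm3, and with near-identical copies the reads of both are uncertain.

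Tpm4, the fourth tropomyosin gene, is a mainly non-muscle form that lies outside the 10 genes, and it went the other way. It had 1034, 971, 1628 and 1012 normalised reads across control replicates 1 to 4 and 2130, 2853, 1872 and 3030 across knockout replicates 1 to 4, with separate groups. It rose by a log2 of 1.09 (SE 0.20, limma adjusted p = 0.00724). Fibroblast markers rose in the same libraries, 8 of 10 called higher, with summed counts of 69743 to 197173 in the controls and 219179 to 376008 in the knockout-labelled group. Limma called 11.6% of all genes tested higher and 11.6% lower. Of the 8 smooth muscle and pericyte markers tested, 0 were called higher and 2 lower, with summed counts of 20492 to 23548 and 15595 to 19962. Synpo2, 1 of the 2 called lower (log2 difference -0.58), held the largest part of these sums. Its means were 13423 and 8962, within mean sums of 21629 and 17516. Of the 8 markers, 4 had a log2 difference above 0, so the fall of the sum does not describe them all. The part of these cells in the tropomyosin counts was not tested. The annotation holds 21 distinct transcript starts for Tpm1, 6 for Tpm2 and 15 for Tpm3, and a count per gene does not tell the muscle forms from the others.

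**Figure D5:**
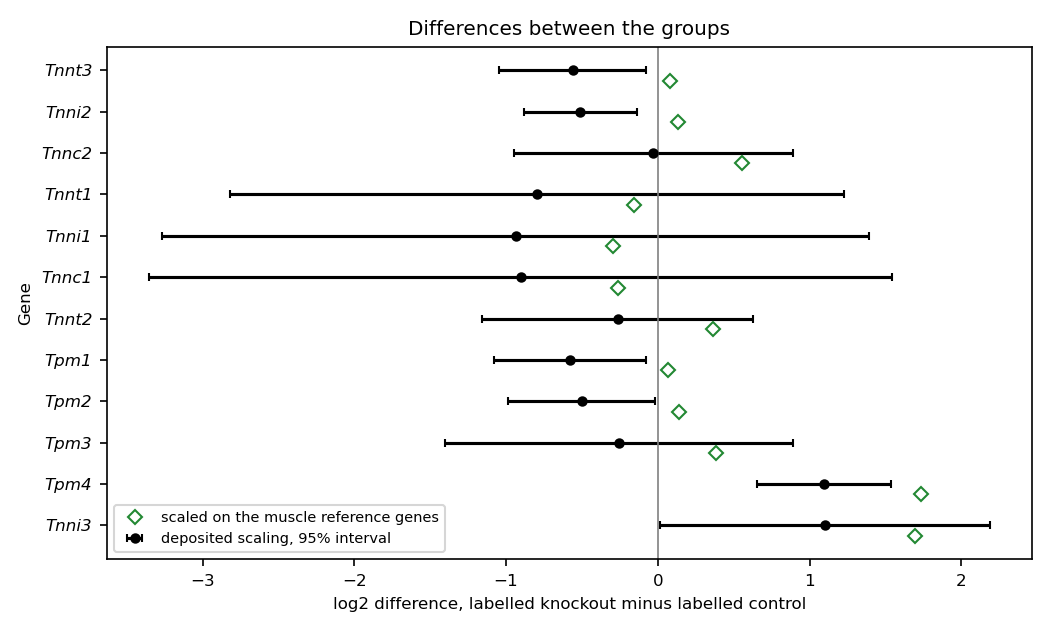
Log2 difference, labelled knockout minus labelled control, of each gene with its 95% interval from limma (black), and the same difference after scaling each library on 12 muscle reference genes (open diamonds). Under the deposited scaling the intervals of Tnnt3, Tnni2, Tpm1 and Tpm2 lie below 0, and under the muscle scaling their differences are between 0.065 and 0.14.

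Summed markers of muscle and of other cells differed between the groups as well. The 12 muscle reference genes, among them Acta1 and Ckm, summed to 918270 to 1077000 in the controls and to 579438 to 745976 in the knockout-labelled group, and all 12 were lower, 7 of them called. All 7 macrophage markers were called higher (median log2 difference 1.45), with sums of 1357 to 3161 and 4839 to 6608. Beside these counts, 11.6% of all genes tested were called lower and 11.6% higher. Of the 7 erythroid markers tested 0 were called (median -1.95, lowest limma adjusted p = 0.0758), with overlapping sums of 16755 to 98968 and 4040 to 42558, while Ahsp was not in the table. Of the 8 neutrophil markers tested 0 were called, with sums of 1393 to 5686 and 1120 to 2715. The part of these cells in the results was not tested. When each library was scaled on these genes, the log2 difference was 0.082 for Tnnt3, 0.13 for Tnni2, 0.065 for Tpm1 and 0.14 for Tpm2 (limma adjusted p = 0.584, 0.307, 0.725 and 0.456). Relative to these muscle genes, the estimated differences of the fast troponins T and I, Tpm1 and Tpm2 were thus 0.065 to 0.14 log2 units. Their standard errors were 0.13 for Tnnt3, 0.11 for Tnni2, 0.16 for Tpm1 and 0.16 for Tpm2. None was called, so that neither a rise nor a fall was shown, and larger differences were not excluded. The slow troponins stayed below 0 under this scaling, at -0.15 for Tnnt1, -0.30 for Tnni1 and -0.26 for Tnnc1. In a bulk library, fewer muscle fibres and less of these transcripts per fibre cannot be told apart.

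Other genes of the contractile apparatus are given for comparison, from lists chosen by function with earlier results of these data known. Over all genes tested, limma called 11.6% lower and 11.6% higher. Of 13 thin filament genes tested, 7 were called lower and 1, Tpm4, higher. Tmod1, which caps the actin filament, fell by 0.76 on the log2 scale (limma adjusted p = 0.00656), and Klhl41, a sarcomere assembly factor, fell by 0.59 (0.00839). Of 11 other fast-fibre genes, 7 were called lower and 0 higher, led by Casq1, the fast calsequestrin (-0.79, limma adjusted p = 0.00750). Myoz1, a Z-disc protein, differed by -0.62 (0.0143) and Actn3, the fast alpha-actinin, by -0.97 (0.0154). Of 12 genes of calcium release and force coupling, 11 were called lower, led by Ryr1, the calcium release channel (-1.04, limma adjusted p = 0.00399), Cacng1, a calcium channel subunit (-0.68, 0.00619), and Hrc, a calcium-binding protein of the sarcoplasmic reticulum (-0.80, 0.00653). The medians of these lists were -0.49 for the thin filament, -0.79 for fast fibres and -0.60 for calcium release, beside -0.56, -0.51 and -0.58 for Tnnt3, Tnni2 and Tpm1. When libraries were scaled on the 12 muscle reference genes, which share Acta1, Neb, Actn2, Klhl41 and Trdn with these lists, the medians moved to 0.15, -0.15 and 0.038. Under that scaling 10003 of all 14949 genes tested were called higher and 31 lower. Of the thin filament genes 3 were called higher and 0 lower, and 0 fast-fibre genes were called. The 3 were Tpm4 (1.74, limma adjusted p = 0.000843), Tnni3 (1.69, 0.0118) and Cfl2 (0.25, 0.0381). Of the 12 calcium release genes 1 was called lower, Ryr1 (-0.40, limma adjusted p = 0.00702), and 1 higher, Asph, a protein of the sarcoplasmic reticulum (0.31, limma adjusted p = 0.0290). Whether the members differed from those lists was not tested.

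By root mean square difference, the genes most like Tnnt3 were Trappc9, Pkm and Kars (0.045, 0.054 and 0.059), and those most like Tnni2 were Zfyve9, Osbpl6 and Ncoa1 (0.050, 0.052 and 0.055). For Tpm1 they were Zfp652, Park7 and Dusp3 (0.074, 0.075 and 0.077), and for Tpm2 Got2, Ndufb8 and Dusp23 (0.098, 0.099 and 0.10). The medians over all genes tested were 0.42 for Tnnt3, 0.39 for Tnni2, 0.44 for Tpm1 and 0.45 for Tpm2. The measure is not scaled to the spread of a gene, so these distances cannot be set against those of the slow troponins.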

How the data were processed

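Poly-A RNA of 8 mouse knee joints was sequenced. Per the labels and the submitters' processing notes, reads were aligned with HISAT2 to mm10, counted per gene with featureCounts and normalised with DESeq2. Versions, annotation, strand setting and filters are not given in the sources used here. The deposited values, a normalised signal, are read counts divided by a size factor of each library. In each column 100% of values were whole multiples of the smallest positive value (tolerance 0.01), which gave back whole reads. In control replicate 2 and knockout replicate 1 that step was 1.01 and 0.997, so that it says little there by itself. Of the value columns, 0 were left unmapped.

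Genes that reached a value of 10 in 4 or more libraries were fitted with limma 3.58.1 (log2 of value plus 1, intensity trend, 1 term for the group), with Benjamini-Hochberg adjustment over the 14949 genes tested. Alternatives were edgeR 4.0.16 and DESeq2 1.42.0 on recovered reads, other scalings, pseudocounts and filters, the replicate block and leaving out each library. Ratios were compared by exact permutation. On simulated data, with 14725 genes passing the filter and 198 of them changed, limma called 170, 12 of them falsely, and found 73.0% of changes of size 1 (log2) and 86.7% of changes of size 2. On the same 14949 genes, 200 of them changed, edgeR called 176, 12 falsely, and DESeq2 called 214, 41 falsely. Coordinates and merged exon lengths came from GENCODE M21 (mm10), which held 20520 of the 20681 names, and promoters from RefSeq.

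The 10 genes and the lists were chosen with earlier results of these data known. Named are the members, Loxl2, Tnni3, Tpm4, at most 3 called genes of smallest p per list and the 3 genes most like each member. Other names (Myh7, Myl3, Atp2a2, Casq2, Myoz2, Myh7b, Mybpc1, Myl6b, Sln, Pln, Asph, Cfl2, Myh3, Myh8, Ncam1, Ube2c, Tpm3-rs7, Synpo2, Acta2, Comp, Hapln1) were chosen after their values were seen. Intervals and n reflect 4 libraries per group.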

Additional observations from a re-analysis of the deposited data

How the results depend on the processing

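No member was called higher under any of the 18 alternatives. The count called lower was 0 as reported and 1 with TMM scaling (Tnni2; 11.2% of all genes tested were called lower). It was 3 with edgeR, 3 with DESeq2 and 3 with limma without the intensity trend, an alternative chosen after seeing the data (Tnnt3, Tnni2 and Tpm1 each time). These called 11.1%, 13.3% and 8.09% of all genes lower. Leaving out single libraries gave 0 to 3, the 3 without knockout replicate 3. For Tnni2 the standard error was 0.17 with the trend and 0.12 without it. Scaling on the pan-muscle reference turned 7 of the 10 differences above 0: Tnnt2 0.37, Tnnt3 0.082, Tnni2 0.13, Tnnc2 0.55, Tpm1 0.065, Tpm2 0.14 and Tpm3 0.39. Tnnt1, Tnni1 and Tnnc1 were -0.15, -0.30 and -0.26 there. The muscle reference genes were themselves lower, so that each sign under this scaling is relative to them. Tnnc2 was 0.098 when libraries were scaled without muscle and blood-cell genes and without the top 50 genes, 0.0201 with edgeR and 0.0198 with DESeq2. Under that scaling the called genes split into 2615 higher and 827 lower, against 1732 and 1729 as reported, and on the pan-muscle reference into 10003 and 31, of 10034 called. Leaving out single libraries moved Tnnt2 between -0.57 and 0.0061, Tnnc2 between -0.28 and 0.23 and Tpm3 between -0.70 and 0.051. It moved the slow-to-fast ratio differences of troponin T between -1.11 and 0.44, of troponin I between -1.32 and 0.35 and of troponin C between -2.03 and 0.086, with exact permutation p-values of 0.229 to 1. The cause was not tested.

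Over all genes, the deviations of same-numbered libraries correlated at 0.21, -0.12, -0.23 and -0.06, and only number 1 correlated best with its own. The labels do not say whether the numbers mark pairs. For the slow troponins, replicate 3 was the lowest library of each group. With the replicate block their standard errors fell from 0.91 to 0.32 for Tnnt1, 1.05 to 0.35 for Tnni1 and 1.10 to 0.35 for Tnnc1. Their limma p-values with it were 0.0413, 0.0312 and 0.0358 unadjusted, and 0.129, 0.111 and 0.119 adjusted. With the replicate block 0 members were called, and 2018 genes were called in place of 3461. Leaving out knockout replicate 4 gave 1751, control replicate 2 1887 and control replicate 4 2194. Among the members the counts of Tnnc2 were the lowest, 6.16 to 19.6 normalised reads, and limited what could be seen for it.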

Other observations

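Among the 136 listed genes found in the annotation, 4 shared over 50% of their exonic bases with other genes. Tnnc2 was one, with Tagln (67.9%), Pln (64.7%) and Nppa (61.5%). Tagln, an abundant transcript of smooth muscle in most tissues, had means of 14.2 in the controls and 17.3 in the knockout-labelled group, where Acta2 of the same cells, with 0 exonic bases shared, had 1132 and 1265. Pln, a regulator of the slow calcium pump, had 22.9 and 23.0. Whether the shared exons bear on these counts was not tested.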
